A study of Arabidopsis thaliana with 6 samples.

Results

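The far part of the long arm of chromosome 2 (Chr.2), beyond the point where the extra chromosome of tertiary trisomy 2 is broken, holds genes that have 3 copies in trisomy 2 and 2 copies in every other karyotype of the study. They were found by locus number, as loci above AT2G25970 with a probe set of their own on the Affymetrix ATH1 array. The array measured 1065 such loci, of which 641 reached the mean signal of 77.7 over the 6 arrays, on the log2 scale, that was taken as expressed, and 15 loci were set aside by the selection rule. This left 626 genes of the 7246 expressed genes in all, and 84 of them carry a symbol other than their locus name. AT2G37870 and AT2G36730 lay just inside the limit, at mean log2 signals of 6.31 and 6.32, and AT2G46150 and AT2G40800 just outside it, at 6.278 and 6.271.

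RNA came from rosette leaves of 26-day-old Arabidopsis plants in the Col-0 background, grown under 16 h of light and 8 h of dark at 22 °C without further treatment. Trisomy 2 (AAA) carries a complete extra Chr.2 with an intact AUR2 gene, and n = 2 arrays were made. Tertiary trisomy 2 (AAa, n = 2) carries the aur2-1 T-DNA allele on an extra chromosome that joins Chr.2 up to AUR2 (AT2G25880) to the end of chromosome 3 that lies before AT3G20040. WT (n = 2) is diploid Col-0. Both trisomics descend from the same aur2-1 insertion line, were picked by their round leaves and then genotyped, and each array measured RNA combined from 21 to 35 plants. The labels and methods do not say whether the arrays of a karyotype stand for separately grown plants. The p-values therefore measure the spread between these arrays only, partly shared across genes of like signal.

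An extra chromosome raises the number of templates for every gene it carries, and in the simplest case the amount of transcript follows the number of copies, which is called a dosage effect. Transcript that stays at the diploid level in spite of the extra copy is called compensated, and transcript above the copy ratio is called amplified. Genes elsewhere in the genome can change too, since regulators encoded on the extra chromosome act on targets anywhere. AAa is therefore a second trisomic with its own imbalance in which the distal Chr.2 genes themselves keep the diploid number of copies.

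All values below are linear probe set signals after each array was centred on genes with 2 copies in every karyotype, called scaled signals, or log2 ratios of them. The median deposited signal lay between 155 and 171 on the 6 arrays, and log2 signals correlated at 0.983 to 0.987 within a karyotype and 0.955 to 0.965 between karyotypes. For the ubiquitin control, 3′ over 5′ signal, a sign of RNA quality, averaged on the log2 scale 1.62 in AAA, 1.24 in AAa and 1.75 in WT. The actin control averaged 3.52 in AAA, 3.19 in AAa and 3.71 in WT, and GAPDH averaged 0.29 in AAA, 0.27 in AAa and 0.06 in WT. The gap between the 2 arrays of AAA, AAa and WT was 0.13, 0.21 and 0.22 for ubiquitin. In the same order it was 0.45, 0.66 and 0.39 for actin, and 0.06, 0.41 and 0.03 for GAPDH. The part of the differences between karyotypes in the results below was not tested. Root peroxidases PRX57 and PER27 gave signals of 1.54 to 19.6, which is under the expression limit, whereas the guard cell factor FAMA gave 175.5 to 223. Markers of leaf mesophyll were not analysed here.

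Distal Chr.2 genes were higher in AAA than in WT nearly throughout. The median log2 ratio was 0.50, which is 1.42-fold, and 597 of the 626 genes (95.4%) had a ratio above 0. At an adjusted p below 0.05 in limma, 334 genes (53.4%) were higher in AAA and 1 was lower, against 11.4% higher and 3.04% lower among all expressed genes. Among the 5469 genes with 2 copies in every karyotype, the median was -0.01 and 3.82% were higher. The count of higher distal genes depended on the processing. It was 249 with the signals as deposited, 244 with arrays centred on all expressed genes and 243 after quantile normalization. With no filter on dim probe sets it was 230, and with no intensity trend 250. Counted without a test, both AAA arrays lay above both WT arrays in 541 genes (86.4%), against 32.4% of all expressed genes. The median over the distal genes was between 0.49 and 0.52 for each of the pairings of an AAA array with a WT array, and between -0.01 and 0.00 for arrays of the same karyotype. Leaving out AAA replicate 1 lowered the count of higher genes to 175 and leaving out AAA replicate 2 lowered it to 177, while the medians were 0.52 and 0.51. In bulk leaf RNA, a change in transcript per cell and a change in the share of cells that express a gene cannot be told apart.

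AAA was next set against AAa, which has 2 copies of the distal genes and its own extra segments of Chr.2 and chromosome 3. This comparison gave 376 genes higher in AAA and 5 lower, against 11.7% higher and 10.7% lower among all expressed genes, with a median log2 ratio of 0.54 (1.45-fold). Both AAA arrays lay above both AAa arrays in 531 genes (84.8%), against 31.1% of all expressed genes. The count of higher genes was 246 without AAA replicate 2. The proximal 410 genes of Chr.2, which have 3 copies in both trisomics, had a median of 0.00 in the same comparison.

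In AAa, where they have 2 copies, the median of the distal genes relative to WT was -0.02 (log2), and 48 genes were higher and 48 lower. These are 7.67% each way, against 14.3% higher and 6.82% lower among all expressed genes, and against 6.95% and 7.81% among the genes with 2 copies throughout. Both AAa arrays lay above both WT arrays in 166 genes (26.5%), against 34.8% of all expressed genes. The balance of the calls depended on the scaling: 37 genes were higher and 70 lower with the signals as deposited, 27 and 91 with arrays centred on all expressed genes, and 27 and 71 after quantile normalization. Without AAa replicate 1 the counts were 20 and 19, without AAa replicate 2 they were 23 and 24, and without WT replicate 2 they were 29 and 29. When the arrays with 3 copies were set against the 4 arrays with 2 copies, the median was 0.53, and 402 genes were higher and 4 lower (11.1% and 6.02% of all expressed genes). Without AAA replicate 1 that count was 253, and without AAA replicate 2 it was 237.

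**Figure D1:**
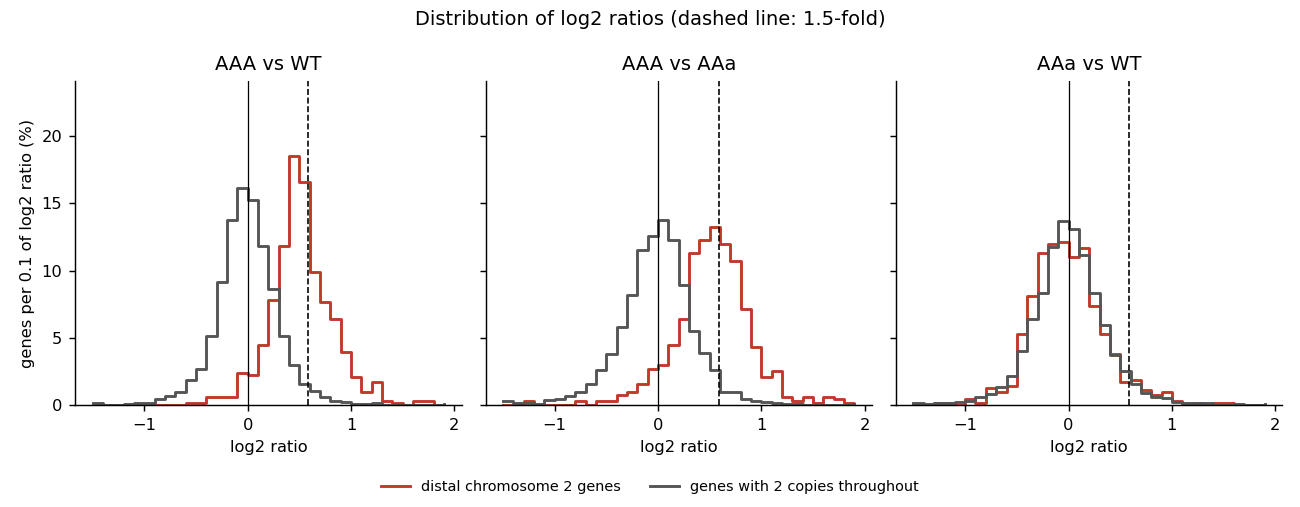
Share of genes (%) in each 0.1 step of log2 ratio for AAA vs WT, AAA vs AAa and AAa vs WT, with the 626 distal Chr.2 genes in red and the 5469 genes with 2 copies throughout in grey, values beyond the axis placed in the end steps, a solid line at 0 and a dashed line at 1.5-fold. The distal genes sit around 0.50 and 0.54 where AAA is compared with WT and AAa, and around -0.02, with the grey curve, where AAa is compared with WT.

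The shift was spread along the whole stretch. Cut by locus number into 5 blocks from AT2G26070 to AT2G48120, the median log2 ratio of AAA to WT was 0.51, 0.52, 0.51, 0.50 and 0.49, and the share of genes that were higher lay between 46.3% (76 of the 164 genes from AT2G40010 to AT2G44970) and 56.9%. The same blocks had medians of 0.45 to 0.57 for AAA to AAa and of -0.04 to 0.04 for AAa to WT. The 3 genes nearest to the breakpoint were RTE1, AT2G26110 and AT2G26190. RTE1, a regulator of ethylene receptor signalling, had scaled signals of 401 and 394 in AAA, 329 and 336 in AAa, and 301 and 325 in WT, a log2 ratio of AAA to WT of 0.35 ± 0.15 (SE) that missed the threshold (adjusted p = 0.14). AT2G26190 stood at 3115 and 2958 in AAA, 2444 and 2414 in AAa, and 1826 and 1221 in WT, and was higher in both trisomics (log2 1.02, adjusted p = 2.36e-04 in AAA, and 0.70, adjusted p = 0.0033 in AAa). AT2G26110 had a ratio of 0.31 with widely spaced WT arrays (490.2 and 248), and was higher in AAA only when WT replicate 1 was left out (0.80, adjusted p = 0.016).

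At the other end of the arm the ratios of AAA to WT were 0.58 for AT2G48060, 0.40 for AT2G48100 and 0.23 for PAC (AT2G48120). PAC (PALE CRESS), needed for chloroplast development, measured 401 and 417 in AAA, 287 and 287 in AAa, and 371 and 326 in WT. Its AAA arrays lay above all others, and the difference passed the threshold against AAa (log2 0.51, adjusted p = 0.022) and not against WT (adjusted p = 0.36). The calls of the other two genes were lost without either AAA replicate (adjusted p = 0.10 and 0.26 for AT2G48060, and 0.18 and 0.11 for AT2G48100). That of AT2G48060 was also lost without WT replicate 1 (adjusted p = 0.29), and that of AT2G48100 without either WT replicate (adjusted p = 0.12 and 0.080). Both calls ended as well under each of the other scalings (adjusted p = 0.075 to 0.086 for AT2G48060 and 0.095 to 0.099 for AT2G48100) and with no intensity trend (0.096 and 0.085). That of AT2G48060 ended too with no filter on dim probe sets (0.12) and with the mean of probe sets (0.067).

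**Figure D2:**
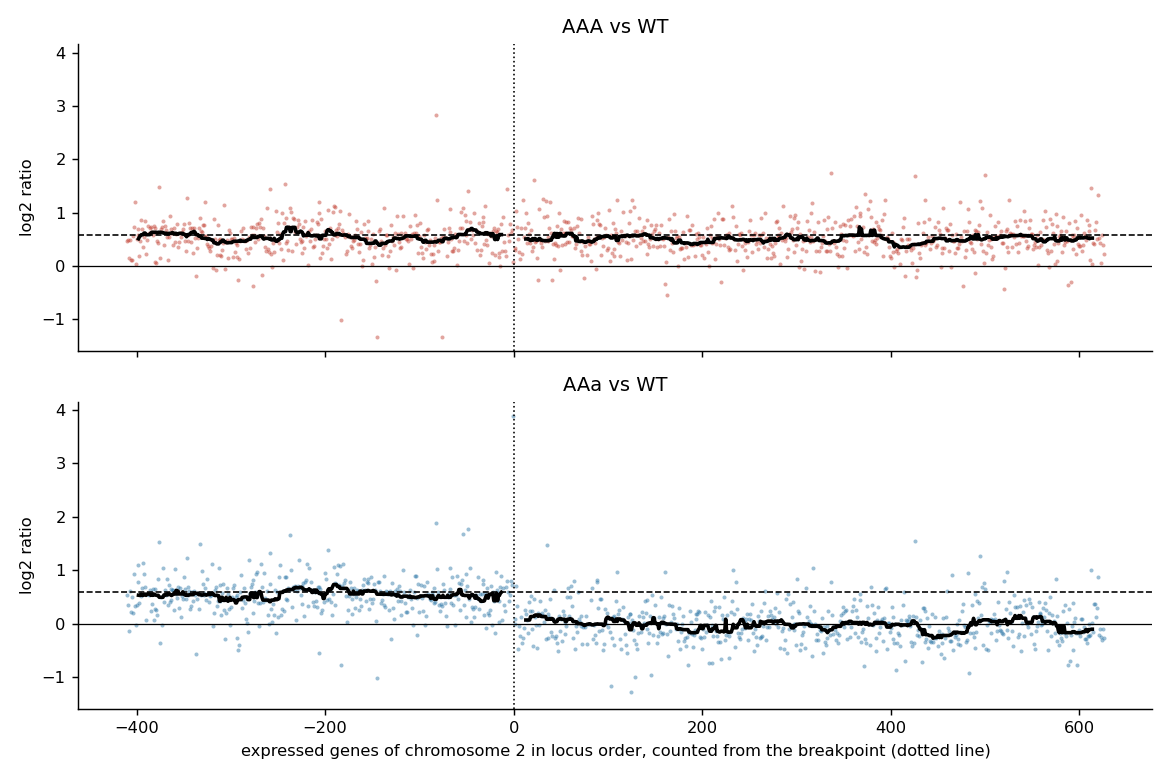
Log2 ratio of each expressed Chr.2 gene in locus order, counted from the breakpoint (dotted line), for AAA vs WT above and AAa vs WT below, with the running median over 25 genes as a black line, a solid line at 0 and a dashed line at 1.5-fold. In AAA the running median stays near 0.5 on both sides, whereas in AAa it lies near 0.54 before the breakpoint and near -0.02 beyond it.

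The brighter genes passed the test more often, with nearly the same median ratio. Mean scaled signals of the 626 genes ran from 79.2 to 28350, with a median of 427. In the brightest 209 genes (644 and above) the median log2 ratio of AAA to WT was 0.50 and 154 were higher, in the middle 208 it was 0.51 and 123 were higher, and in the dimmest 209 it was 0.49 and 57 were higher. Among genes with 2 copies throughout in the same signal ranges, 84 of 1687, 59 of 1661 and 64 of 2082 were higher, from bright to dim. The median standard error of a distal gene was 0.13, 0.15 and 0.22 in the same order. Across genes, the correlation of mean log2 signal with the ratio was -0.0019 (Pearson) and 0.022 (Spearman), given as a description since genes are not independent replicates. The expression limit was reached by the group mean of 622 genes in AAA, 612 in AAa and 606 in WT. In 4 genes it was reached in AAA alone, and without them the median was 0.50.

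The ratio of copies is 1.5, which is 0.58 on the log2 scale, and the distribution peaked somewhat below it. The ratio of AAA to WT lay within 20% of 1.5-fold in 450 genes (71.9%), at or below the diploid level in 29 and over 2-fold in 37. A single gene was measured with a 95% interval of about 0.32 to either side. That interval held 1.5-fold but not equality in 394 genes, both in 91, and equality but not 1.5-fold in 70, whereas it lay wholly above 1.5-fold in 57, between equality and 1.5-fold in 11, and wholly below equality in 3. The middle of the distribution depended on the scaling, since the median was 0.42 with each of 3 others, namely the signals as deposited, centring on all expressed genes and quantile normalization.

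Tested gene by gene against the copy ratio, 40 genes (6.39%) were apart from 1.5-fold at an adjusted p below 0.05, of which 17 were above it and 23 below it. Over all expressed genes, tested against their own copy ratio, 5.47% were apart, and 20 of the 410 proximal Chr.2 genes (4.88%) were. The share among these 626 genes was thus near that of the whole array. With the 15 loci set aside by the selection rule put back, 49 of 641 genes were apart. Under the other scalings the count was 58, 55 and 54, with the order of the scalings as above. With one array of AAA left out the count was 10 (without replicate 1) or 15 (without replicate 2). The spread of the ratios over the 626 genes was also like that of genes whose copies did not change. The standard deviation was 0.31 over the 626 genes and 0.32 over the 5469 genes with 2 copies throughout. The 15 loci set aside, which are not among the 626, varied more, with a standard deviation of 1.15.

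**Figure D3:**
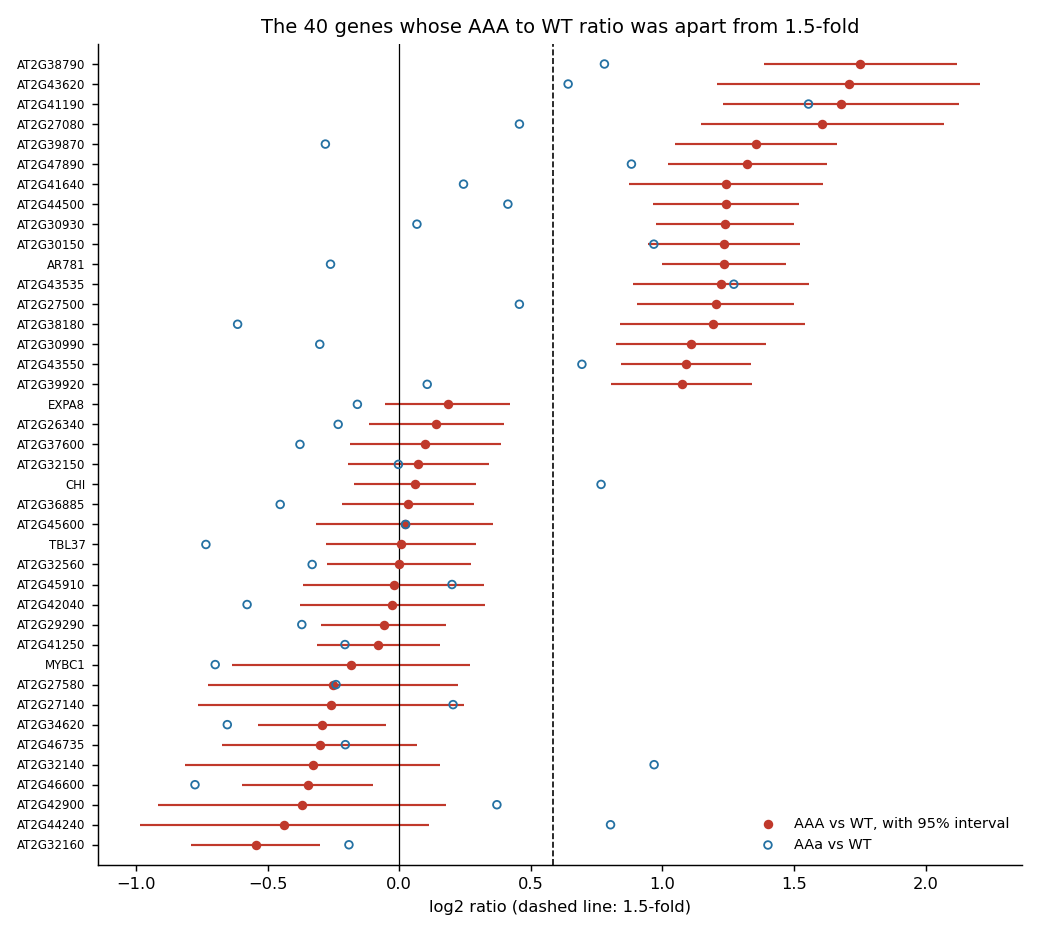
Log2 ratio of AAA to WT (filled red, with the 95% interval) and of AAa to WT (open blue) for the 40 distal Chr.2 genes apart from 1.5-fold (dashed line), in order of the AAA to WT ratio. The 17 genes above have ratios of 1.07 to 1.75 and the 23 genes below have ratios of -0.55 to 0.18, while the open points lie on either side of 0.

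The genes above the copy ratio that are named here ranged in AAa between 2 patterns, and not all 17 are named. In the first, AAa lay near WT. AT2G39870 measured 838 and 728 in AAA, 252 and 250.5 in AAa, and 307 and 303 in WT, so that only AAA stood out (log2 1.36 ± 0.15 to WT, adjusted p = 1.38e-05, and 1.64 to AAa, adjusted p = 1.75e-06). AT2G41640 was alike in this, with ratios to WT of 1.24 in AAA and 0.24 in AAa. AT2G27080 followed the pattern less closely, with 1.61 in AAA and 0.46 in AAa. The ratios of these genes in AAa did not pass the threshold.

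In the second pattern the gene was raised in AAa as well, where it has no extra copy. AT2G41190 had 351 and 396 in AAA, 314 and 373 in AAa, and 90.7 and 149 in WT, and its arrays overlapped between the trisomics. Its log2 ratio to WT was 1.68 ± 0.21 in AAA and 1.55 in AAa (adjusted p = 6.92e-05 and 1.09e-04), and AAA did not pass against AAa (0.12, adjusted p = 0.73). AT2G43535, with 383 and 417 in AAA, 382 and 447 in AAa, and 173 and 169 in WT, followed it closely (1.22 and 1.27). AT2G47890, AT2G44500 and AT2G38790 fell between the patterns, since AAA was higher than AAa and AAa higher than WT in each. AT2G38790 had the highest ratio of AAA to WT of all 626 genes, at 998 and 1005 in AAA, 618 and 422 in AAa, and 336 and 264 in WT (log2 1.75 ± 0.17, 3.37-fold, adjusted p = 5.65e-06).

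AT2G43620 gave 241 and 241 in AAA, 95.5 and 139 in AAa, and 75.7 and 72.1 in WT, and was higher in AAA than in either (1.71 to WT and 1.07 to AAa). AT2G47680 and AT2G27310 had log2 ratios to WT of 1.45 and 1.25 in AAA, which passed against 0 but not against 1.5-fold. Without AAA replicate 1 neither was called any longer (adjusted p = 0.053 and 0.054). None of these loci has a name in the annotation used here.

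Genes that stayed at or under the diploid level in AAA were few. AT2G32160 was the only one called lower than WT, at 2211 and 2278 in AAA, 2909 and 2831 in AAa, and 3011 and 3566 in WT. Both AAA arrays lay below all 4 others (log2 -0.55 ± 0.12 to WT, adjusted p = 0.0043, and -0.35 to AAa, adjusted p = 0.037). The call against WT was lost without AAA replicate 1 (-0.52, adjusted p = 0.050) and without WT replicate 2 (-0.42, adjusted p = 0.052), and the call against AAa when any AAA or AAa array was left out (adjusted p = 0.11 to 0.17), with no filter on dim probe sets (0.087) and with no intensity trend (0.12). Its neighbours in locus order were apart from the copy ratio too. AT2G32150 measured 984 and 951 in AAA, 855 and 986 in AAa, and 877 and 965 in WT (0.07 ± 0.13, adjusted p = 0.78), with overlapping arrays throughout. AT2G32140 measured 97.3 and 84.2 in AAA, 227 and 217 in AAa, and 132 and 97.9 in WT, and was raised in AAa alone (0.97, adjusted p = 0.0066). The next gene on the other side, AT2G32170, was at 0.55 in AAA, near the copy ratio.

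A pair of bright genes was low in both trisomics. AT2G46600 had 6737 and 7622 in AAA, 5524 and 5140.0 in AAa, and 8634 and 9644 in WT, so that the karyotypes did not overlap and AAa was the lowest. Its ratio to WT was -0.35 ± 0.12 in AAA (adjusted p = 0.057) and -0.78 in AAa (adjusted p = 2.48e-04). AT2G34620 was alike, with 4039.6 and 3839.8 in AAA, 2827 and 3330.4 in AAa, and 4784 and 4867 in WT (-0.29, adjusted p = 0.10, in AAA, and -0.65, adjusted p = 8.68e-04, in AAa). With the signals as deposited, both were also called lower in AAA (-0.43, adjusted p = 0.019, and -0.38, adjusted p = 0.034). In each, AAA was higher than AAa by 0.43 and 0.36, which passed (adjusted p = 0.014 and 0.034).

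The other pattern among the low genes was a rise in AAa. AT2G44240 was dim, with 68.0 and 71.3 in AAA, 143 and 189 in AAa, and 82.5 and 108 in WT, and AAA was lower than AAa by 1.24 on the log2 scale (adjusted p = 0.0025). Without AAa replicate 2 that call was lost (adjusted p = 0.062). CHI (AT2G43570), a putative chitinase, an enzyme class that breaks down fungal cell walls, had 2017 and 1954 in AAA, 3294 and 3194 in AAa, and 1907 and 1906 in WT. AAA and WT lay close together (log2 0.06 ± 0.11, apart from 1.5-fold with an adjusted p of 0.0083), and AAa stood above both (0.77 to WT, adjusted p = 1.59e-04). MYBC1, a MYB-like factor that restrains freezing tolerance, did not share this rise and was lower in AAa than in WT. It measured 205 and 186 in AAA, 115 and 163 in AAa, and 197 and 250.0 in WT. Its ratio to WT was -0.18 in AAA, apart from 1.5-fold (adjusted p = 0.046), and -0.70 in AAa (adjusted p = 0.028).

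AT2G42900, AT2G46735, AT2G27140 and AT2G27580 completed the low end, with ratios of AAA to WT of -0.37, -0.30, -0.26 and -0.25, none of them past the threshold against 0. AT2G42900 was called lower in AAA than in AAa at an adjusted p of 0.049, and no longer with any one AAA or AAa array left out (adjusted p = 0.091 to 0.29), centred on all expressed genes (0.052), after quantile normalization (0.091), with no filter on dim probe sets (0.15), with the mean of probe sets (0.0502) or with the replicate block (0.051).

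**Figure D4:**
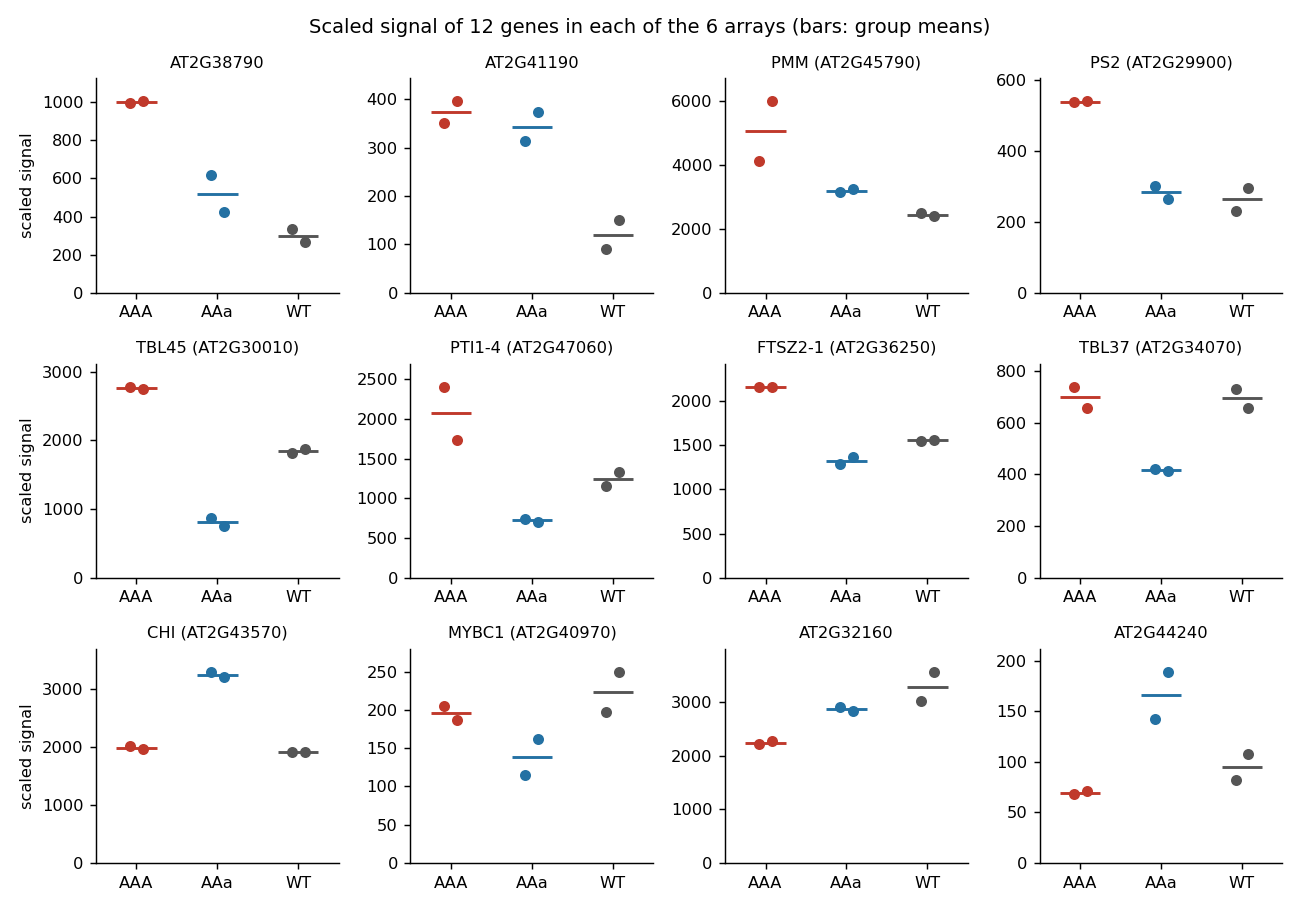
Scaled signal (linear axis from 0) of 12 distal Chr.2 genes in each array of AAA, AAa and WT, 2 points per karyotype with the mean as a bar. AT2G38790 and PMM are ordered AAA, AAa, WT from high to low, TBL45, PTI1-4 and FTSZ2-1 are highest in AAA and lowest in AAa, TBL37 and CHI are alike in AAA and WT and differ in AAa, and AT2G32160 is lowest in AAA.

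The functions of the distal genes could be described for those with a symbol or a functional synonym in the annotation. Over the 84 genes with a symbol, the median log2 ratio of AAA to WT was 0.50, and 42 were higher and 0 lower, as for the 626 genes together. In AAA against AAa, 54 of them were higher and 1 lower. In AAa against WT 4 of the 84 were higher and 8 lower. The shares in AAa against WT were 7.67% each way among all distal genes, and 14.3% higher and 6.82% lower among all expressed genes. Genes with a symbol or a functional synonym were grouped by function, and every group had a median above 0, between 0.37 for cell wall genes and 0.66 for signalling genes. The counts of each group stand against 53.4% higher than WT and 60.1% higher than AAa among all distal genes, and 11.4% and 11.7% among all expressed genes, and no group was tested against the others.

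Cell wall and glycan genes had the lowest median, 0.37, with 5 of 14 higher in AAA than in WT, and 10 of 14 higher in AAA than in AAa. The trichome birefringence-like (TBL) family, whose characterised members add acetyl groups to wall polysaccharides, accounts for 7 of them and was uneven. TBL45 measured 2785 and 2755 in AAA, 876 and 759 in AAa, and 1814 and 1876 in WT. Its ratio to WT of 0.59 ± 0.12 in AAA matched the copy ratio within the error, whereas AAa was 1.18 lower than WT (adjusted p = 7.81e-06) with the same number of copies. TBL37 had 739 and 655 in AAA, 420.5 and 413 in AAa, and 731 and 657 in WT, so that AAA lay level with WT (0.01, apart from 1.5-fold with an adjusted p of 0.017) and AAa below it (-0.73, adjusted p = 0.0011). TBL40 (AT2G31110) resembled TBL45, with 882 and 780.1 in AAA, 388 and 371 in AAa, and 511 and 543 in WT (0.65 in AAA and -0.47 in AAa). Its call in AAA was lost without AAA replicate 1 (adjusted p = 0.061) and with the mean of its probe sets (adjusted p = 0.074). TBL15 had overlapping arrays throughout, and its ratio to WT was -0.06 in AAA. In all, 3 of the 7 TBL genes were lower in AAa than in WT, with a family median of -0.30, against 7.67% lower among all distal genes and 6.82% among all expressed genes.

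Elsewhere in the wall group, PMM (AT2G45790), the phosphomannomutase that makes mannose 1-phosphate for glycans and ascorbate, had 4114 and 5982 in AAA, 3146 and 3232 in AAa, and 2499 and 2382 in WT (1.02 ± 0.14, 2.03-fold, adjusted p = 1.65e-04). XTH32, of the enzymes that cut and rejoin xyloglucan, had 1953 and 2364 in AAA, 1507 and 1528 in AAa, and 1349 and 1266 in WT (0.72, adjusted p = 8.75e-04). EXPA8, an expansin that loosens walls, differed little, at 2503 and 2493 in AAA, 1993 and 1946 in AAa, and 2302 and 2100.4 in WT. Its AAA arrays were above all others, yet the ratio to WT of 0.18 was apart from 1.5-fold (adjusted p = 0.046). GlcAT14C (AT2G37585), a glucuronosyltransferase of arabinogalactan proteins, was 0.60 higher in AAA and 0.49 lower in AAa than in WT (adjusted p = 0.022 and 0.046).

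Of the 11 transcription factors and regulators 4 were higher in AAA than in WT, with a group median of 0.53. ARL (ARGOS-LIKE), which promotes cell expansion in growing organs, had 648 and 765 in AAA, 548 and 515 in AAa, and 452 and 353 in WT (0.82, adjusted p = 0.0016). BZIP17, a membrane-bound factor released under endoplasmic reticulum and salt stress, had 469.9 and 508 in AAA, 368 and 389 in AAa, and 313 and 280.1 in WT (0.72, adjusted p = 0.0031). Both were thus ordered AAA, AAa, WT without overlap, although AAa did not pass against WT. PosF21 (AT2G31370) had a ratio of 0.73 in AAA and 0.01 in AAa. LHW, which controls vascular cell divisions, had 445 and 349 in AAA, 183 and 187 in AAa, and 145 and 244 in WT (1.07, adjusted p = 0.0033), a call that was lost without AAA replicate 1 (0.89, adjusted p = 0.075). RR16, a cytokinin response regulator, had a ratio of -0.02.

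Chromatin and RNA genes had a median of 0.49, with 3 of 9 called higher. IKU1 (HAIKU1), counted in this group although described as a regulator of seed size, was raised in both trisomics. It had 230.5 and 238 in AAA, 287 and 218 in AAa, and 133 and 117 in WT (0.91, adjusted p = 0.0043, in AAA, and 1.01, adjusted p = 0.0017, in AAa). MAC3B, of the spliceosome-associated MOS4 complex, and SWC2, of the SWR1 complex that exchanges histone H2A for H2A.Z, had ratios of 0.42 and 0.54 in AAA, with adjusted p of 0.039 and 0.048. Neither call held when any AAA or WT array was left out (adjusted p = 0.066 to 0.30 for MAC3B and 0.072 to 0.19 for SWC2), and that of SWC2 was lost without either AAa array as well (adjusted p = 0.062 and 0.063). Both calls also ended under each of the other scalings (adjusted p = 0.090 to 0.10 for MAC3B and 0.093 to 0.096 for SWC2) and with no filter on dim probe sets (0.10 and 0.095). That of MAC3B ended with no intensity trend (0.13), and that of SWC2 with the replicate block (0.060) and with AAA and WT arrays alone (0.056). The single ratios of the group lay between 0.23, for the DNA glycosylase ATNTH1, and 0.91.

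Plastid and mitochondrial genes lay between 0.14 and 0.76 with a median of 0.43, and 7 of 13 were higher in AAA than in WT. COS1, lumazine synthase of riboflavin synthesis, had 2902 and 3066 in AAA, 1734 and 2008 in AAa, and 1907 and 1638 in WT (0.76, adjusted p = 5.58e-04). THIC, which makes the pyrimidine of thiamine, had 9393 and 8967 in AAA, 5715 and 6446 in AAa, and 5852 and 6374 in WT, a ratio of 0.59 that equals the copy ratio within the error, with AAa level with WT. FTSZ2-1, a tubulin-like protein of the plastid division ring, had 2165 and 2161 in AAA, 1283 and 1362 in AAa, and 1553 and 1556 in WT (0.48, adjusted p = 0.0082), and its call was lost without either AAA replicate (adjusted p = 0.063 in both cases). ETFQO, which passes electrons from amino acid breakdown to ubiquinone, had a ratio of 0.66 whose call was lost without AAA replicate 2 (adjusted p = 0.18) and without WT replicate 1 (adjusted p = 0.10). MBAC1, a mitochondrial carrier for basic amino acids, had the lowest ratio, 0.14. Against AAa, 11 of the 13 genes were higher, with a median of 0.68. OEP16-3, a mitochondrial member of the OEP16 family, was lower in AAa than in WT, at 7540.3 and 7340.2 in AAA, 3425 and 4141 in AAa, and 5999 and 5826 in WT (-0.65, adjusted p = 0.0010).

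Signalling and defence genes had the highest median, 0.66, and 8 of 13 were higher in AAA than in WT. PS2, presenilin-2, whose animal counterpart is the catalytic subunit of gamma-secretase, had 536 and 539 in AAA, 301 and 264 in AAa, and 231 and 294 in WT (1.05 ± 0.16, 2.06-fold, adjusted p = 3.99e-04). BIK1, the kinase that relays signals from pattern recognition receptors, had 798 and 911 in AAA, 540.4 and 564 in AAa, and 503 and 513 in WT (0.75, adjusted p = 0.0011). GLR2.7, a glutamate receptor-like channel, had 776 and 728 in AAA, 322 and 399 in AAa, and 437 and 436 in WT (0.78, adjusted p = 0.0016). In each of them both AAA arrays were above all others, and AAa did not pass against WT. PTI1-4, a kinase of the Pto-interacting family, had 2406 and 1732 in AAA, 745 and 703 in AAa, and 1156 and 1327 in WT, so that AAa fell below WT (-0.78, adjusted p = 0.0014) while AAA lay above it (0.72, adjusted p = 0.0030). The call of PTI1-4 in AAA was lost without AAA replicate 1 (0.48, adjusted p = 0.080).

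Transport and trafficking genes had a median of 0.44, all of them above 0, and 5 of 9 were higher in AAA than in WT. PRA1.B4, a prenylated Rab acceptor, had 748 and 859 in AAA, 309 and 432 in AAa, and 479 and 425 in WT (0.83, adjusted p = 0.0025). MTP11, a manganese transporter of the Golgi, had 1917 and 2419 in AAA, 1614 and 1810.5 in AAa, and 1441 and 1452 in WT (0.57, adjusted p = 0.0060). VHA-A1, the subunit that places the proton pump in the trans-Golgi network, and MON1 (AT2G28390), which recruits Rab7 to late endosomes, had ratios of 0.61 and 0.56. These calls were lost without 1 array: PRA1.B4 (adjusted p = 0.054) and MTP11 (0.12) without AAA replicate 2, VHA-A1 without AAA replicate 1 (0.099), and MON1 without either AAA replicate (0.074 and 0.085) or without WT replicate 1 (0.12). ZIP6, of a family of zinc and iron carriers, had the lowest ratio of the group, 0.32.

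Metabolic enzymes had a median of 0.55, and 10 of 15 were higher in AAA than in WT. NATA2 (AT2G39020), an N-acetyltransferase, had 874 and 923 in AAA, 543 and 564 in AAa, and 564 and 512 in WT (0.74, adjusted p = 0.0010). GLX2-1, a glyoxalase II that detoxifies methylglyoxal, had 928 and 899.8 in AAA, 664 and 594 in AAa, and 549 and 627 in WT (0.64, adjusted p = 0.0034). UGT87A2, a glycosyltransferase, and MAP1A, which removes the first methionine of proteins, were higher in both trisomics. UGT87A2 had 1654 and 1884 in AAA, 1479 and 1595 in AAa, and 1105 and 1198 in WT (0.62 in AAA and 0.42 in AAa, adjusted p = 0.0023 and 0.021). MAP1A had 1000.3 and 937 in AAA, 775 and 841 in AAa, and 513 and 677 in WT (0.72 and 0.45, adjusted p = 0.0027 and 0.033). GPDHC1, a cytosolic glycerol-3-phosphate dehydrogenase, differed from these in AAa, with 620 and 603 in AAA, 277 and 277 in AAa, and 432 and 479 in WT, a ratio of AAa to WT of -0.72 (adjusted p = 0.0019). BGLU33, a beta-glucosidase, had the lowest ratio in AAA, 0.14.

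Of 5 cytoskeleton and division genes, which include FTSZ2-1, all were higher in AAA than in AAa (median 0.71), and 2 were higher in AAA than in WT (median 0.43). NET4B, an actin-binding protein, had 441 and 531 in AAA, 314 and 280.4 in AAa, and 262 and 219 in WT (1.01, adjusted p = 5.86e-04). TUB7, a beta-tubulin, had 723 and 654 in AAA, 365 and 380.3 in AAa, and 533 and 521 in WT, and was lower in AAa than in WT (-0.50, adjusted p = 0.015). WLIM2a, which bundles actin, had the lowest ratio to WT, 0.35 (adjusted p = 0.16).

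Of 27 listed loci of the cytosolic ribosome, 15 were among the distal genes. Of these 15, 13 were higher in AAA than in WT with a median of 0.58, and both AAA arrays lay above both WT arrays in all 15. Over all distal genes these shares were 53.4% and 86.4%, with a median of 0.50, and over all expressed genes 11.4% and 32.4%. Most of the 15 belong to the brightest 209 distal genes, of which 154 (73.7%) were higher in AAA than in WT. PGY1, a large-subunit protein and the only one with a symbol in the annotation, had 7701 and 8332 in AAA, 4667 and 4611 in AAa, and 5383 and 5008 in WT (0.63, adjusted p = 0.0012).

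**Figure D5:**
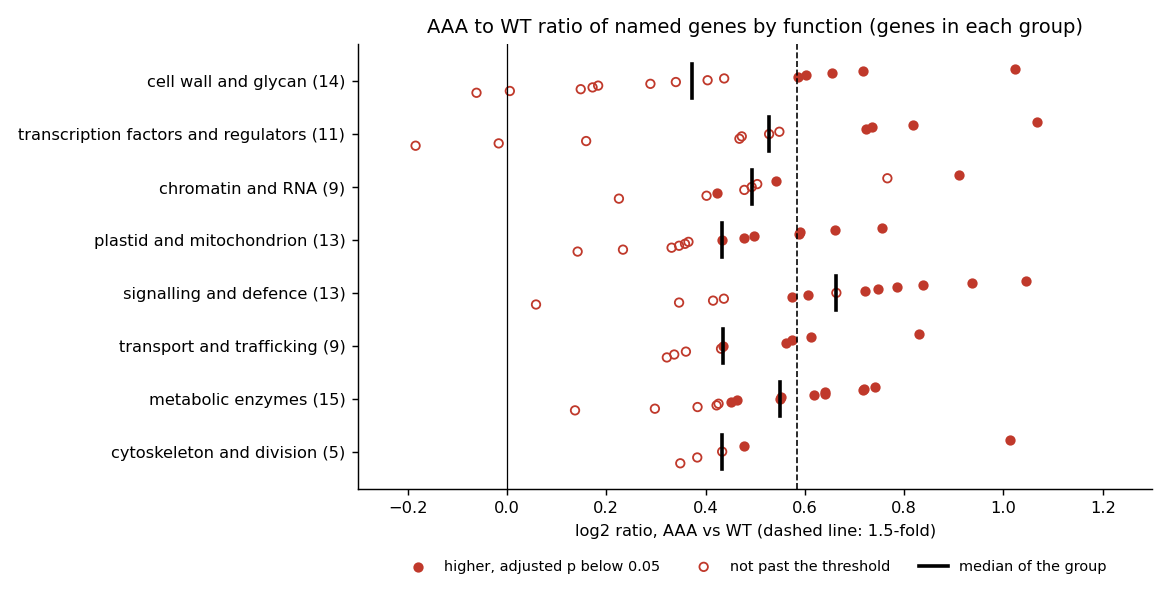
Log2 ratio of AAA to WT for the distal Chr.2 genes with a symbol or functional synonym in 8 functional groups (number of genes in parentheses), filled where higher at an adjusted p below 0.05 and open otherwise, with the group median as a bar, a solid line at 0 and a dashed line at 1.5-fold. The medians run from 0.37 for cell wall and glycan genes to 0.66 for signalling and defence genes.

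Between the trisomics the widest gaps were those of genes that were high in AAA and low in AAa. AT2G38180 had 633 and 524 in AAA, 168 and 162 in AAa, and 234 and 273 in WT, so that AAA was 1.805 higher than AAa (3.49-fold, adjusted p = 2.39e-06), of which 1.19 lay above WT and 0.61 below it. TBL45 (1.76), AT2G43200 (1.75), AT2G31730 (1.73) and AT2G31010 (1.65) came next. The last 3 of these are dim, with AAa signals of 39.5 to 91.5, and their WT arrays were spaced from 77.2 to 244. Their falls in AAa against WT (-0.93, -0.96 and -0.998) were each lost when single AAa or WT arrays were left out. AT2G43200 lost the call without AAa replicate 1 or 2 (adjusted p = 0.084 and 0.088) or WT replicate 1 (0.25), AT2G31730 without AAa replicate 1 or 2 (0.13 and 0.059) or WT replicate 2 (0.11), and AT2G31010 without AAa replicate 2 (0.12) or WT replicate 1 (0.17). With no filter on dim probe sets all of these falls ended as calls (0.092, 0.10 and 0.079). AT2G31010 was also called higher in AAA than in AAa by its brightest probe set and not by the mean of its probe sets (0.71, adjusted p = 0.053). With that mean its fall in AAa against WT was absent (0.017, adjusted p = 0.97). AT2G30890 fell furthest in AAa, with 178 and 205 in AAA, 66.6 and 77.2 in AAa, and 209 and 144 in WT (-1.28, adjusted p = 0.0012), and its AAA and WT arrays overlapped.

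Genes raised in AAa without an extra copy were led, after AT2G41190, by AT2G27420 and AT2G43535. AT2G27420 had 133 and 139 in AAA, 202 and 189.5 in AAa, and 78.3 and 63.8 in WT, a ratio to WT of 1.47 in AAa (adjusted p = 3.07e-04) and 0.94 in AAA (adjusted p = 0.0093). AAa thus exceeded AAA in both arrays, although the gap of 0.52 did not pass the test (adjusted p = 0.11). AT2G38240 had 134 and 113 in AAA, 181 and 184 in AAa, and 90.3 and 86.4 in WT, and was called higher in AAa (1.04, adjusted p = 0.0033) and not in AAA (0.48, adjusted p = 0.18), with a difference between the trisomics of 0.57 that was not called (adjusted p = 0.079).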

How the data were processed

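RNA of rosette leaves was measured on 6 ATH1 arrays, 2 for each of AAA, AAa and WT, with the karyotype and number of each read from its title. The deposited values are linear intensities, which the authors obtained with GCOS (version not given in the sources used here), and the trimmed mean of every array lay between 500.0 and 500.1. The GC-RMA and vsn values of the study were not used here. Signals below 1 (245 to 488 per array) were set to 1 and taken to log2, and arrays were then centred on their own median over expressed genes that have 2 copies in every karyotype.

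Of 22810 probe sets (64 of them controls), 13513 were annotated to 1 gene, 503 to several and 8794 to none, and 77 of the first kind were not matched to a locus. The brightest probe set was kept for each gene, and names and locus order were taken from RefSeq. A mean log2 signal of 6.28 (a signal of 77.7) counted as expressed. All 7246 expressed genes were tested in 1 fit of the 3 karyotypes in limma 3.58.1 (R 4.3.3), with lmFit and eBayes with an intensity trend, two-sided, and with Benjamini-Hochberg adjustment over all of them. The fit was also run on simulated data with independent noise and a 1.5-fold shift put in. That run checks the calculation only, not how real arrays vary. "Higher", "lower" and "called" mean an adjusted p below 0.05. The test against the copy ratio used the same fit. With 2 arrays on each side, 0.333 is the smallest p that exact permutation allows.

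The named genes are the 10 highest and 10 lowest log2 ratios of AAA to WT past a test, the 5 highest and lowest of the other comparisons, those at either end of the stretch, and for each functional group those with the smallest p and the lowest ratio. Others were named after their values were seen. The genes, groups and lists were chosen with earlier results of these data known. Functional groups hold genes with a symbol or a functional synonym in RefSeq, and few members of the other lists were matched. Same-numbered arrays of different karyotypes did not deviate together (r of -0.04, 0.02 and -0.05). The labels do not say whether the numbers pair the arrays, and these correlations cannot settle it. Alternatives covered scaling, the floor, the filter, probe sets, the variance trend, the replicate block, the arrays in the fit and leaving out each array.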

Additional observations from a re-analysis of the deposited data

Results flagged for a closer look

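In 20 of the 626 distal Chr.2 genes both trisomics were called against WT in opposite directions, higher in AAA and lower in AAa, and AAA was called higher than AAa. These are 3.19% of the distal genes, of which 53.4% were higher in AAA than in WT in any case. The same calls were made in 31 of the 7246 expressed genes (0.428%, the 20 included) and in 11 of the 5469 genes with 2 copies throughout (0.201%), where 3.82% were higher in AAA than in WT. The test of the difference is that of AAA against AAa in the same limma fit, and the comparisons with WT share its arrays. The widest differences on the log2 scale were those of AT2G38180 (1.805), TBL45 (AT2G30010, 1.764), AT2G43200 (1.747), PTI1-4 (AT2G47060, 1.496), AT2G34300 (1.276), AT2G35040 (1.252) and AT2G47440 (1.214). AT2G32170 (1.155), TBL40 (AT2G31110, 1.128), AT2G27720 (1.114), AT2G35880 (1.111), GlcAT14C (AT2G37585, 1.097) and AT2G44640 (1.022) followed. The other differences were below 1: AT2G26210 (0.979), AT2G37840 (0.942), AT2G27730 (0.888), AT2G42690 (0.878), AT2G43760 (0.875), AT2G33255 (0.824) and AT2G34590 (0.734).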

How the results depend on the processing

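The shift of the distal genes kept its direction in AAA against WT and AAA against AAa under every alternative. The median ratio of AAA to WT was 0.422 as deposited, 0.420 centred on all expressed genes, 0.418 after quantile normalization and 0.464 with no filter on dim probe sets. That of AAA to AAa was 0.501, 0.546, 0.530 and 0.408 in the same order, 0.541 with the filter on WT arrays alone, 0.575 with the stricter filter and 0.533 with the mean of probe sets. For 3 against 2 copies it was 0.467, 0.489, 0.483 and 0.451, 0.559 with the stricter filter and 0.521 with the mean of probe sets. For AAa to WT it was -0.066, -0.11, -0.10 and 0.045, then -0.027, -0.053 and -0.016 for the filter on WT, the stricter filter and the mean of probe sets, so its sign was not settled. In AAa against WT, 27 genes were higher and 91 lower when centred on all expressed genes, 27 higher after quantile normalization, 29 higher and 27 lower with no filter, and 27 lower with no intensity trend. Genes apart from the copy ratio numbered 21 with no filter and 22 with no intensity trend.

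With one array left out, the ranges for AAA against WT were 175 to 312 higher and 0 to 1 lower genes, medians of 0.503 to 0.525 and 10 to 30 genes apart from the copy ratio. For AAA against AAa they were 246 to 391 and 0.529 to 0.552, for 3 against 2 copies 237 to 391 and 0.523 to 0.539. For AAa against WT 20 to 38 genes were higher and 19 to 39 lower, with medians of -0.041 to -0.019. With the replicate block, 321 genes were higher in AAA than in WT, 372 higher than in AAa and 34 apart from the copy ratio. In AAa against WT the fit with the replicate block gave 46 higher and 43 lower, and it lost the calls of SWC2 and AT2G42900. Of 84 results for named genes, some of them not called in the main fit, 58 stayed on the same side of the threshold throughout. Those 58 include results with no call to lose. The fall of AT2G31010 in AAa was absent with the mean of its probe sets (0.017, adjusted p = 0.97). With 2 arrays a karyotype and a 95% interval near 0.32, a single gene can seldom be placed between equality and 1.5-fold, and signals near the limit are the least certain.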
